A study of Mus musculus with 15 samples.

Results

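The effect of a burn added to irradiation was examined in spleens that received no vesicles, by comparing the 3 samples of radiation combined with burn injury (RCI) with the 3 samples of whole-body ionizing radiation alone (WBIR). These 6 of the series' 15 samples were chosen by their titles, and all 547 endogenous genes of the nCounter Mouse Immunology Panel were followed, a hybridization assay that counts a colour-coded barcode for each mRNA. All mice were female C57BL/6J, 6 to 8 weeks old, and both groups received 9 Gy. RCI mice also had a full-thickness contact burn of 20% of the body surface shortly before irradiation, with anaesthesia, shaving, morphine, fluid resuscitation and single housing. The methods describe none of these for WBIR mice, so the burn and its accompanying procedures cannot be told apart. The labels name PBS for RCI only, whereas the text of the study gives saline to untreated mice of either injury, 72 h after injury, with spleens taken 48 h later. The remaining groups were Sham (no injury), WBIR+MSC-EVs and RCI+MSC-EVs (3 samples each), the last 2 given extracellular vesicles of mesenchymal stem cells in place of saline. They entered the estimate of the spread, and the vesicle-treated pair gave the same burn contrast in other samples. The sources do not settle if the 3 replicates are separate mice, so p-values measure the spread between these samples, which may be technical.

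Burned skin releases danger signals and cytokines into the circulation. Interleukin-1 (IL-1) and tumor necrosis factor (TNF) act through the transcription factor NFκB and induce chemokines, while IL-6 family cytokines act through STAT3, and together they drive the acute phase response, in which complement proteins are made in excess. The spleen filters blood, and its macrophages, stromal cells and remaining lymphocytes respond to such signals. High-dose irradiation removes most splenic lymphocytes within days.

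Total counts were 204412 to 360995 in WBIR and 294960 to 484525 in RCI. Values below are counts scaled to the geometric mean of the panel's 14 reference genes. B cell markers (5 genes) summed to 569 to 837 in WBIR and 348 to 720 in RCI against 11571 to 14711 in Sham. Macrophage markers summed to 9363 to 16227 in WBIR, to 13607, 14601 and 34492 in RCI replicates 1 to 3, and to 1590 to 2518 in Sham. Only RCI replicate 3 was above the WBIR range, mostly through *Marco*. Against the other 2 RCI samples its *Marco* was higher and its *Cd163*, in the same sum, lower (log2 differences 2.84 and -3.20). Fewer cells of a type and less RNA per cell cannot be told apart in such bulk samples. RCI replicate 3 (RCI 3) stood apart from its group, with correlations across genes of 0.878 and 0.886 with RCI 1 and RCI 2, against 0.988 between those, and the values without it are therefore given beside the main results. The reference genes did not hold level between the groups, and the groups did not overlap in 7 of the 14, among them *Tubb5*, which was lower in RCI (log2FC -1.99).

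With edgeR's quasi-likelihood test, 3 of the 426 genes that had enough counts to test (0.704%) differed at a Benjamini-Hochberg adjusted p under 0.05, and each was higher in RCI. They were *Ccl9*, a chemokine of myeloid cells, *Il1r1*, the signalling receptor for IL-1, and *C4a*, which belongs to the complement C4 locus. Without RCI 3 the same 3 genes and *Ccl6*, a second myeloid chemokine, were called (0.939%), all higher in RCI. No gene was called as lower, with or without RCI 3 or in any alternative that was run. DESeq2 called 28 genes, and 6 without RCI 3. With edgeR fitted to the 2 groups alone 0 genes were called (lowest adjusted p 0.0631, and 73 genes at an unadjusted p under 0.05). Few genes thus passed the test one by one, beside a spread between replicates with a coefficient of variation of 33.1%.

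Without adjustment 71 genes (16.7%) had a p under 0.05, 64 higher (15%) and 7 lower (1.64%) in RCI, and without RCI 3 there were 65 (15.3%), 60 higher (14.1%) and 5 lower (1.17%). Only 35 genes were in both sets, 32 higher and 3 lower, each with the same sign. The 2 groups did not overlap in 115 genes (27%), 96 higher (22.5%) and 19 lower (4.46%). The excess of higher genes depended on how samples were scaled. Over the tested genes the log2FC had a median of 0.20 with the reference genes and of 0.02 with TMM scaling, under which the split at an unadjusted p was 43 higher of 71 and the genes without overlap were 55 higher and 51 lower. With the 7 least variable reference genes the split was 29 higher of 60, and with the reference genes other than *Tubb5* 43 of 62. Values below are relative to all 14 reference genes, and a gene near the median of 0.20 stood level with the panel as a whole. For values without RCI 3 that level was 0.31, the median over all tested genes without it. Counts of list members at an unadjusted p are to be held against the shares of all tested genes given here.

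**Figure D1:**
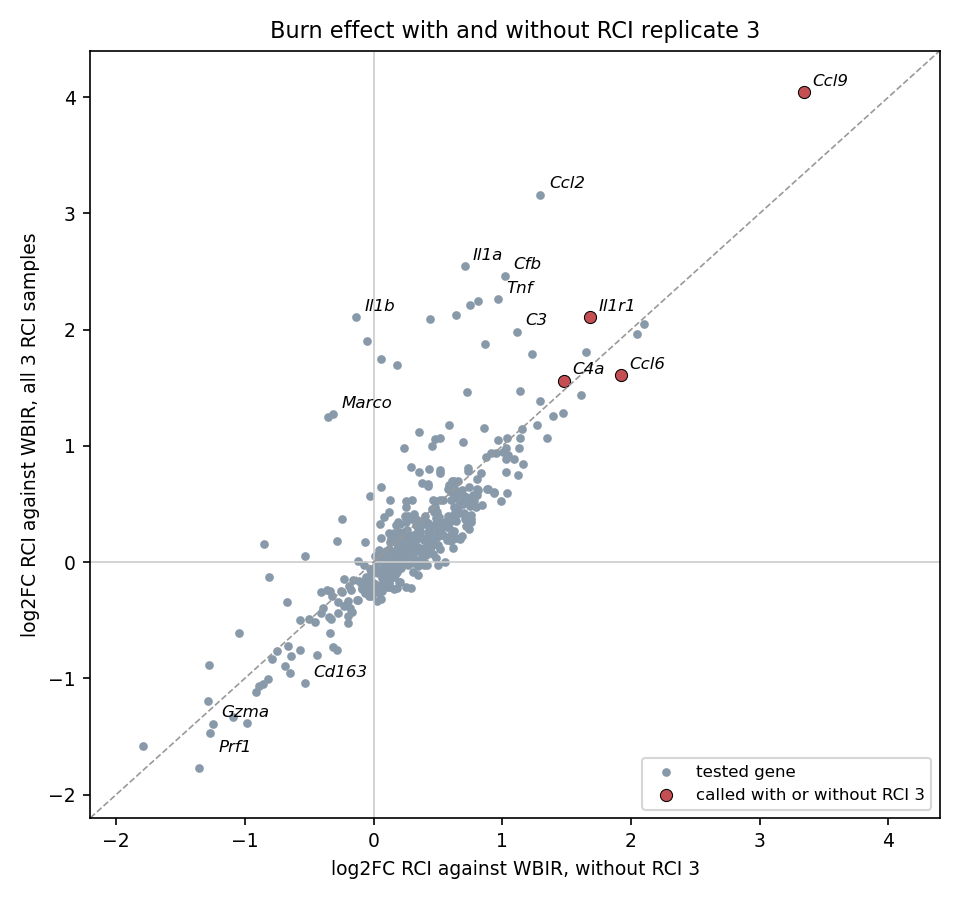
Log2FC of RCI against WBIR for the 426 tested genes with all 3 RCI samples (vertical axis) and without RCI 3 (horizontal axis), with the line of equal values dashed. Of the genes in red, *C4a* lay near the line, *Ccl9* and *Il1r1* somewhat above it and *Ccl6* somewhat below it. *Il1b*, *Il1a*, *Ccl2*, *Tnf* and *Marco* lay far above it.

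*Ccl9* had 34.7, 23.3 and 34.5 scaled counts in WBIR 1 to 3 and 232, 398 and 896 in RCI 1 to 3. Every RCI sample was above every WBIR sample and also above the Sham range of 87.0 to 223. The log2FC was 4.04 ± 0.56 (SE, edgeR adjusted p = 0.00191), and 3.35 without RCI 3 (edgeR adjusted p = 0.00367). It was the largest log2FC among the tested genes, and each scaling that was tried called it.

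*Ccl6* had 125, 144 and 151 scaled counts in WBIR and 385, 678 and 223 in RCI. The groups did not overlap, and RCI 3 was the lowest of its group, unlike for *Ccl9*. The log2FC was 1.61 ± 0.42 (edgeR adjusted p = 0.0951), and 1.92 without RCI 3 (edgeR adjusted p = 0.0384).

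*Ccl9* and *Ccl6* are next to each other among the panel's genes in the CC chemokine cluster of chromosome 11, between *Ccl5* and *Ccl3*, whose log2FC were -1.12 (unadjusted p = 0.0148 in edgeR) and 1.25 (unadjusted p = 0.117). *Il1r1* lies in a cluster of receptor genes of the IL-1 family on chromosome 1. There its tested neighbours *Il1r2*, the decoy receptor, and *Il1rl2*, the IL-36 receptor, had log2FC of -0.34 and 0.90 (unadjusted p = 0.613 and 0.0903), and *Il18r1* and *Il18rap*, the chains of the IL-18 receptor, -0.11 and -0.72. The call at either locus therefore did not extend to all neighbours.

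The 250 bases before the annotated starts of these called genes (RefSeq, GRCm38.p6) are shown because the calls rest on these genes. They were searched on both strands for TGANTCA (bound by AP-1), TTGCNNAA (C/EBP), TTCNNNGAA (STAT proteins), GAGGAA (ETS factors) and the kappaB motif of NFκB, and matches are in capitals.
Ccl9 (chr11:83578637-83578886, minus strand): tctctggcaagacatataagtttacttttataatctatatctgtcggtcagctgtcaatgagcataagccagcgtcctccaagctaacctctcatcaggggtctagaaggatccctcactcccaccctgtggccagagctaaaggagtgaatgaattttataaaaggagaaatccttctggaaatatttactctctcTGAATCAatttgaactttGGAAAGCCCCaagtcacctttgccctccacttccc
Ccl6 (chr11:83593088-83593337, minus strand): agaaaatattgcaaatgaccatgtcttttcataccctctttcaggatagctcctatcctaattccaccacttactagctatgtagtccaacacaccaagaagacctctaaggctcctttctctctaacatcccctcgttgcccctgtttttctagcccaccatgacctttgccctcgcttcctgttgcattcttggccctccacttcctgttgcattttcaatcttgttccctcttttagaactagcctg
Il1r1, first start (chr1:40224830-40225079, plus strand): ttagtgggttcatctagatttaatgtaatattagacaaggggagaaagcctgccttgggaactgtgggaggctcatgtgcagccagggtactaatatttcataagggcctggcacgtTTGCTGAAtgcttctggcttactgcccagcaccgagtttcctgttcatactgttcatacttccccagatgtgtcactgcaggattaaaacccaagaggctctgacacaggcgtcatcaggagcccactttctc
Il1r1, second start (chr1:40266336-40266585, plus strand): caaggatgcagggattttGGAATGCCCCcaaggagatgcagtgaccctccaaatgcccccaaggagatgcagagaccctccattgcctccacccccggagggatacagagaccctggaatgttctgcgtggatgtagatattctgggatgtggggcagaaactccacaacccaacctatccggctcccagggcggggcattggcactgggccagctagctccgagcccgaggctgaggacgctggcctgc
The *Ccl9* window held TGANTCA 53 to 47 bases and a kappaB match 35 to 26 bases before the start. The *Ccl6* window held none of these motifs. The windows of *Il1r1* held TTGCNNAA 133 to 126 bases before the first start and a kappaB match 232 to 223 bases before the second. Of all 32851 promoter windows of this length, 9.56% held TTGCNNAA, 7.02% TTCNNNGAA, 6.75% TGANTCA, 23.3% GAGGAA and 3.90% kappaB, and of the 510 windows of panel genes 11.2%, 10.6%, 9.22%, 30.4% and 8.82%. A match describes letters only and does not show binding. The table had no entry for *C4a*.

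*Il1r1* had 14.2, 18.2 and 13.5 scaled counts in WBIR and 48.4, 50.3 and 98.4 in RCI. The groups lay apart with a gap of over 2-fold. The log2FC was 2.11 ± 0.35 (edgeR adjusted p = 0.00607), and 1.68 without RCI 3 (edgeR adjusted p = 0.0308). WBIR counts were low, and the gene was not tested where a mean of 50 counts was required. With TMM scaling its edgeR adjusted p was 0.0618.

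*C4a* had 269, 155 and 227 scaled counts in WBIR and 599, 609 and 712 in RCI. It was the called gene with the tightest RCI group, RCI 3 included. The log2FC was 1.56 ± 0.30 (edgeR adjusted p = 0.0191), and 1.48 without RCI 3 (edgeR adjusted p = 0.0476). With TMM scaling its edgeR adjusted p was 0.0634. RefSeq lists *C4a* as a transcribed pseudogene beside the near-identical *C4b*, which encodes complement C4 and is no separate entry of the panel, so which of the pair was counted is uncertain.

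**Figure D2:**
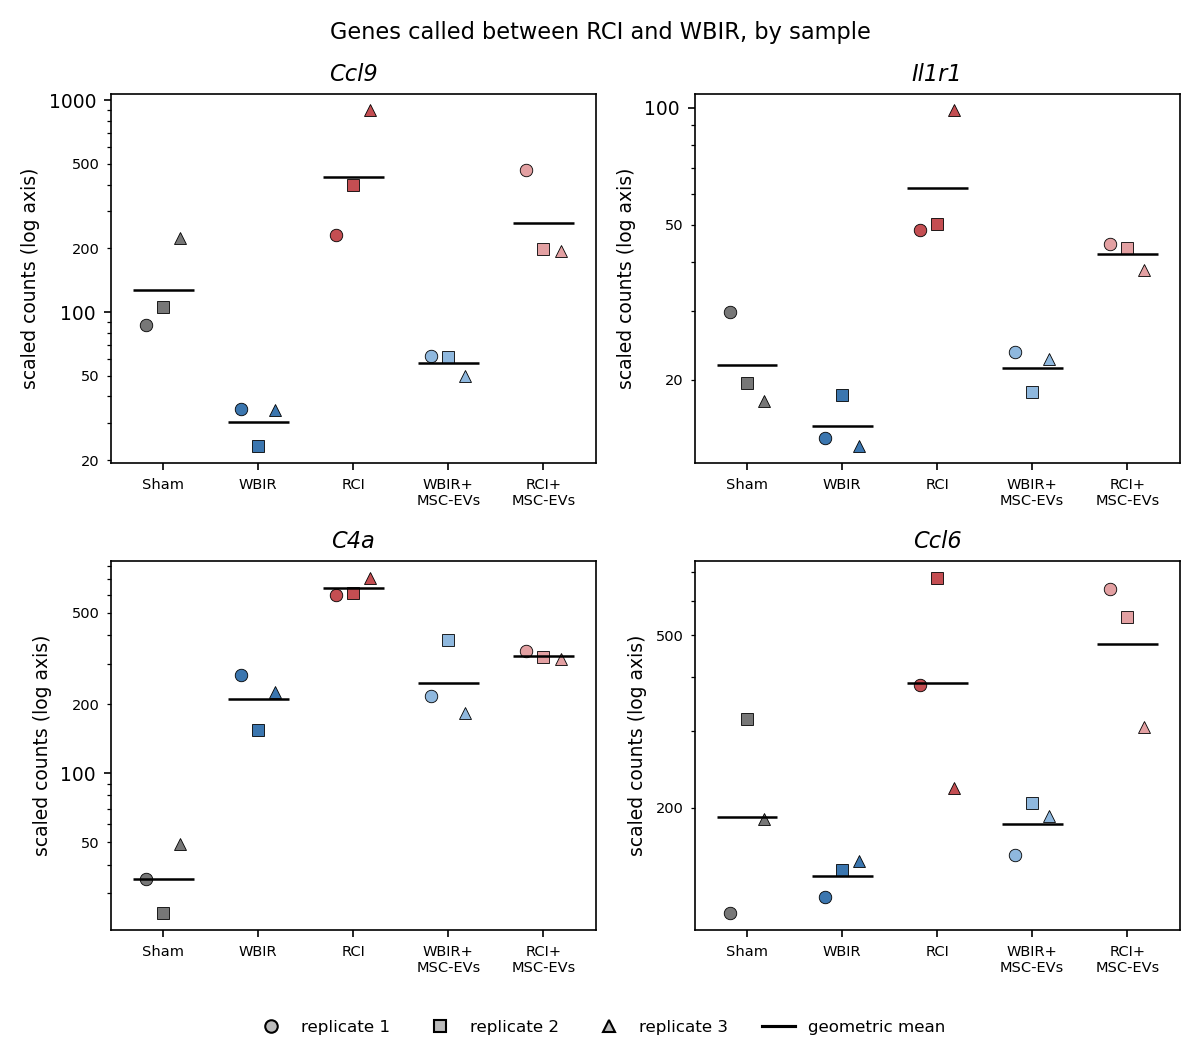
Counts scaled to the reference genes (log axis) of *Ccl9*, *Il1r1*, *C4a* and *Ccl6* in each of the 15 samples, by group, with 1 symbol per replicate and a line at the geometric mean. In each of these genes the 3 RCI samples were above the 3 WBIR samples, and *C4a* overlapped between the vesicle-treated groups.

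The inflammatory CC chemokines had the highest median log2FC of the 22 gene lists with all 3 RCI samples, and complement had it without RCI 3. Of the 8 tested, 4 were higher and 1 lower at an unadjusted p under 0.05, against 15% and 1.64% of all tested genes. Their median log2FC was 1.43 against 0.20 over all tested genes. Without RCI 3 the median was 0.60 against 0.31. There 3 were higher, *Ccl9*, *Ccl6* and *Ccl2*, and 0 lower, against 14.1% and 1.17% of all tested genes. *Ccl2*, the main attractant of monocytes, had 20.6, 8.10 and 16.01 scaled counts in WBIR and 27.8, 45.5 and 322 in RCI. All RCI samples were above WBIR, yet most of the log2FC of 3.16 ± 0.81 (edgeR adjusted p = 0.0951) came with RCI 3, and it was 1.30 without it. *Ccl12*, another ligand of the monocyte receptor CCR2, had 26.9, 64.7 and 287 in RCI and overlapped WBIR. *Ccl24*, an eosinophil attractant made by macrophages, had 3210 and 4659 in RCI 1 and 2 but 166 in RCI 3, against 2600 to 2750 in WBIR. *Ccl5*, made by cytotoxic lymphocytes, was the chemokine that was lower with all samples (log2FC -1.12). It was -0.92 without RCI 3 and -0.67 without WBIR 1 (unadjusted p = 0.0569 and 0.114 in edgeR).

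In the IL-1 family the receptor was higher in all 3 RCI samples, whereas *Il1b*, *Il1rn* and *Irak3* were far above WBIR only in RCI 3. Of 17 tested, 6 were higher and 0 lower at an unadjusted p, and 2 remained without RCI 3, *Il1r1* and *Myd88*. The shares of all tested genes that were higher were 15% and 14.1%. *Myd88*, the adaptor of IL-1 and Toll-like receptors, had 391 to 440 scaled counts in WBIR and 567 to 669 in RCI (log2FC 0.54, unadjusted p = 0.00902 in edgeR). *Il1b* had 116, 47.6 and 88.5 scaled counts in WBIR and 74.4, 77.9 and 925 in RCI. RCI 1 and 2 lay within the WBIR range, and only RCI 3 was above it. *Il1rn*, the receptor antagonist, and *Irak3*, an inhibitor of the pathway, shared this form, with log2FC of 1.91 and 1.75 that became -0.05 and 0.06 without RCI 3. *Il1a* had 153, 222 and 1634 in RCI against 92.1 to 133 in WBIR, so its groups did not overlap, and its log2FC was 2.55 with and 0.71 without RCI 3. The list's median was 0.13, and -0.07 with TMM scaling.

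In the complement list 1 of 16 tested members was called, *C4a*. Of the 16, 6 were higher and 0 lower at an unadjusted p, among them *Cfb*, *C3*, *C4a*, *Cd55* and *C1s*, and 5 were higher without RCI 3, against 15% and 14.1% of all tested genes. With vesicles 0 of the 16 reached an unadjusted p under 0.05. The median log2FC was 0.61, 0.71 without RCI 3 and 0.41 with TMM scaling, against 0.20, 0.31 and 0.02 over all tested genes. *C3*, the central protein of the cascade, had 408, 146 and 195 scaled counts in WBIR and 486, 589 and 1871 in RCI. *Cfb*, the protease of the alternative pathway, had 93.9, 70.9 and 88.5 in WBIR and 171, 171 and 1052 in RCI. Both lay apart between the groups, with log2FC of 1.98 and 2.47 against 1.11 and 1.02 without RCI 3 (unadjusted p = 0.0107 and 0.00387 in edgeR). *C1s*, a protease of the C1 complex, had 86.2, 23.3 and 27.8 in WBIR and 122, 153 and 92.0 in RCI. In *C3* and *C1s* WBIR 1 was the highest WBIR sample. Without WBIR 1 both were called (edgeR adjusted p = 0.0255 each), with log2FC of 2.53 and 2.25, and so were the stromal chemokines *Cxcl12* (1.87) and *Cxcl13* (3.03). *C1qa* and *C1qb*, made by macrophages, had log2FC of -0.23 and 0.27, and *Cr2*, the complement receptor of B cells, -0.76. Endothelial and stromal markers (5 genes, *Pecam1*, *Cdh5*, *Cxcl12*, *Cxcl13* and *Ccl19*) summed to 1397 to 2016 in WBIR and 2322 to 2847 in RCI. The sum includes the chemokines just named, so it is no separate measure of stromal cells. The part of such cells in the result was not tested.

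**Figure D3:**
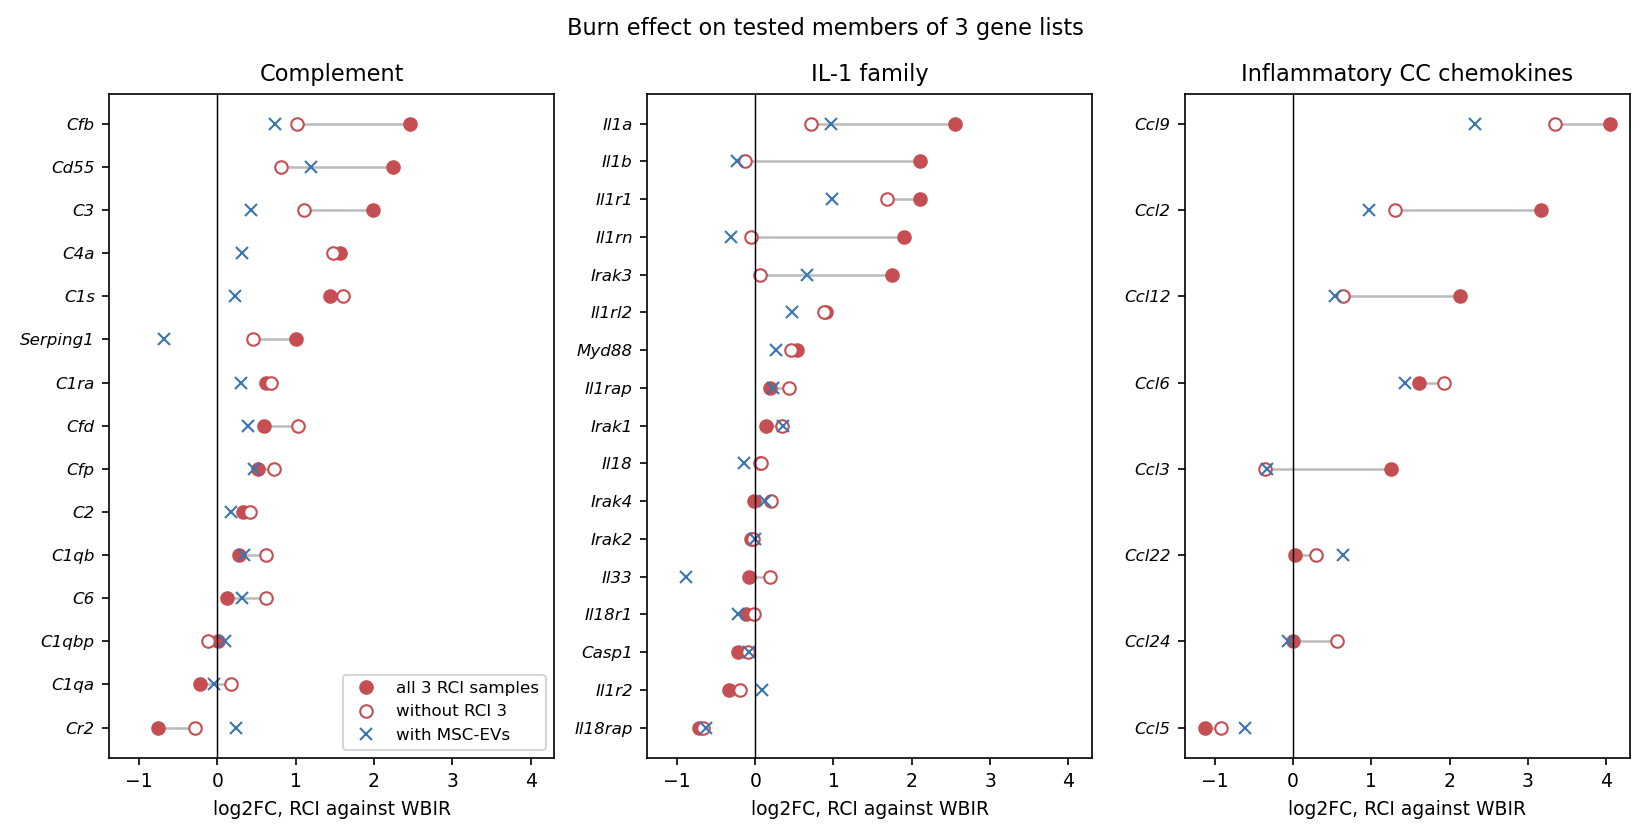
Log2FC of RCI against WBIR for tested members of the complement, IL-1 family and inflammatory CC chemokine lists, with all RCI samples (filled), without RCI 3 (open) and in the vesicle-treated groups (crosses). For *C4a* and *C1s* filled and open circles are close, and for *Ccl6* the open circle is the higher. For *Il1b*, *Il1rn*, *Irak3* and *Ccl3* the open circle is near 0 or below.

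NFκB genes were higher mainly in RCI 3. Of 19 tested, 6 were higher at an unadjusted p, *Tnfaip3*, *Nfkbiz*, *Ikbke*, *Relb*, *Bcl3* and *Nfkb2*, and 0 without RCI 3. In 9 of the 19 all RCI samples were above all WBIR samples, and in 1 below, against 22.5% and 4.46% of all tested genes. The list's median log2FC went from 0.52 to 0.25, while that of all tested genes went from 0.20 to 0.31. *Tnfaip3*, the feedback inhibitor A20, had 77.2, 80.0 and 95.2 scaled counts in WBIR and 105, 123 and 846 in RCI. All 3 RCI samples were higher, RCI 1 and 2 by little. *Tnf* had 25.7, 14.2 and 29.5 in WBIR and 43.1, 47.9 and 241 in RCI, a log2FC of 2.26 ± 0.63 (edgeR adjusted p = 0.0951) and of 0.97 without RCI 3. In the TNF superfamily 4 of 14 were higher at an unadjusted p, and 3 without RCI 3. In the Toll-like receptor list 3 of 12 were higher, *Tlr1*, *Cd14* and *Tirap*, but without RCI 3 only *Sigirr* was. No member of either list was lower at that threshold, and the share of all tested genes that were higher was 15%, and 14.1% without RCI 3.

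Other receptors and regulators were higher in all 3 RCI samples and had much the same log2FC without RCI 3, among the 35 genes at an unadjusted p with and without RCI 3. Those described here were chosen after their values were seen, and edgeR called none of them with all samples. DESeq2 called 6 of the 8, all but *Fas* and *Xbp1*. With edgeR, *Nt5e* was called without Sham 1, and *Cd99*, *Il6st* and *Socs1* without Sham 2. *Il6st*, the gp130 chain through which IL-6 family cytokines signal, had 161, 188 and 172 scaled counts in WBIR and 337, 439 and 379 in RCI (log2FC 1.15 ± 0.32, edgeR adjusted p = 0.0951). *Ltbr*, the lymphotoxin receptor of stromal and myeloid cells, had 126, 220 and 225 in WBIR and 369, 411 and 354 in RCI. *Socs1*, an inhibitor of cytokine signalling, had 145 to 192 in WBIR and 274 to 303 in RCI. *Fas*, the death receptor, had 28.3 to 37.1 in WBIR and 58.7 to 62.8 in RCI. *Cd99* had 142 to 158 in WBIR and 302 to 326 in RCI. *Nt5e*, which encodes the ecto-enzyme CD73, had 30.9 to 40.4 in WBIR and 71.1 to 99.5 in RCI, and *Fcgr2b*, the inhibitory Fc receptor, 94.2 to 138 and 195 to 374. *Xbp1*, of the unfolded protein response, had 973 to 1369 in WBIR and 1820 to 1864 in RCI. The groups did not overlap in any of these 8 genes, whose log2FC were between 0.64 (*Xbp1*) and 1.28 (*Fcgr2b*), and between 0.63 and 1.47 in the same genes without RCI 3. Of the IL-6 family list as a whole, 1 of 9 was higher at an unadjusted p and 3 without RCI 3, against 15% and 14.1% of all tested genes.

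Genes of macrophages and stroma were mixed. In the macrophage and scavenger list 3 of 18 were higher at an unadjusted p and 1 without RCI 3, against 15% and 14.1% of all tested genes. *Msr1*, a scavenger receptor, had 288, 432 and 296 scaled counts in WBIR and 657, 1010 and 998 in RCI, with all RCI samples above WBIR and a log2FC of 1.39, or 1.30 without RCI 3. *Marco*, another scavenger receptor, had 3721 to 5621 in WBIR and 3187 and 4666 in RCI 1 and 2, but 27539 in RCI 3. *Csf1*, the growth factor of macrophages, had 63.1, 37.5 and 29.5 in WBIR and 76.2, 126 and 242 in RCI, a log2FC of 1.79, or 1.23 without RCI 3. *Fn1*, which encodes fibronectin, had 79.8, 22.3 and 24.4 in WBIR and 165, 191 and 159 in RCI (log2FC 2.04 ± 0.93, edgeR adjusted p = 0.271), and the log2FC was 2.10 without RCI 3. Of the endothelial and stromal list 6 of 15 were higher at an unadjusted p, against the same 15% of all tested genes. Without RCI 3 it was 1 higher (*Icam2*) and 1 lower (*Icam1*), against 14.1% and 1.17%. The list's median log2FC was 0.33, and 0.50 without RCI 3, against 0.20 and 0.31 over all tested genes. *Cdh5*, the cadherin of endothelium, had a log2FC of 0.94, and 0.91 without RCI 3, and *Cxcl12* 1.05 and 0.97. These differences were thus about as large with fewer samples, whereas *Cxcl13* went from 1.88 to 0.86. In the vesicle-treated pair the log2FC was 0.67 for *Msr1*, -0.15 for *Marco*, 0.13 for *Csf1* and 1.17 for *Fn1*. There it was 0.69 for *Cdh5*, -0.08 for *Cxcl12* and 0.345 for *Cxcl13*.

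Genes of cytotoxic lymphocytes were mostly below WBIR, and none of them was called. In the NK and cytotoxic list 16 of 18 tested members had a log2FC below 0, whereas 68.3% of all tested genes had one above 0. At an unadjusted p 2 members were lower, *Prf1* and *Gzma*, against 1.64% of all tested genes. The list's median was -0.76, or -0.97 with TMM scaling. *Prf1*, which encodes perforin, had 250, 89.1 and 100.2 scaled counts in WBIR and 65.5, 55.1 and 37.3 in RCI (log2FC -1.47 ± 0.51, edgeR adjusted p = 0.148). *Gzma*, a granzyme, had 1668, 625 and 804 in WBIR and 495, 374 and 312 in RCI (log2FC -1.39 ± 0.56, edgeR adjusted p = 0.235). The groups lay apart in both, and WBIR 1 was far above the other WBIR samples. *Xcl1*, a chemokine of NK and CD8 T cells outside that list, had 180, 61.8 and 91.0 in WBIR and 49.3, 40.7 and 54.2 in RCI. *Klrd1*, a receptor chain of NK cells, had 405, 178 and 205 in WBIR and 154, 143 and 94.9 in RCI.

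WBIR 1 was the highest WBIR sample in 16 of these 18 genes. Without it 11 members were below 0 (136 of all 426 tested genes were) and the median was -0.25, and *Prf1* and *Gzma* had log2FC of -0.85 and -0.86 (unadjusted p = 0.103 and 0.160 in edgeR). Without RCI 3 the median was -0.38, and *Prf1* and *Gzmb* were lower at an unadjusted p, against 1.17% of all tested genes. NK cell markers (2 genes, both members of the list) summed to 551, 221 and 255 in WBIR and 205, 170 and 108 in RCI. Neutrophil markers (6 genes) had sums of 4773, 1526 and 4196 in WBIR 1 to 3 and 1792, 1823 and 1322 in RCI, and their part in the result was not tested. *S100a9*, a neutrophil calcium-binding protein, had a log2FC of -1.33 (unadjusted p = 0.0881 in edgeR), with WBIR 2 inside the RCI range. *Camp*, which encodes cathelicidin and is in the same sum, went the other way. Its log2FC was 1.26 (unadjusted p = 0.291 in edgeR), 1.39 without RCI 3 and 1.77 with vesicles. Of the 5 tested members of the neutrophil granule list 2 had a log2FC above 0, and 0 reached an unadjusted p under 0.05.

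**Figure D4:**
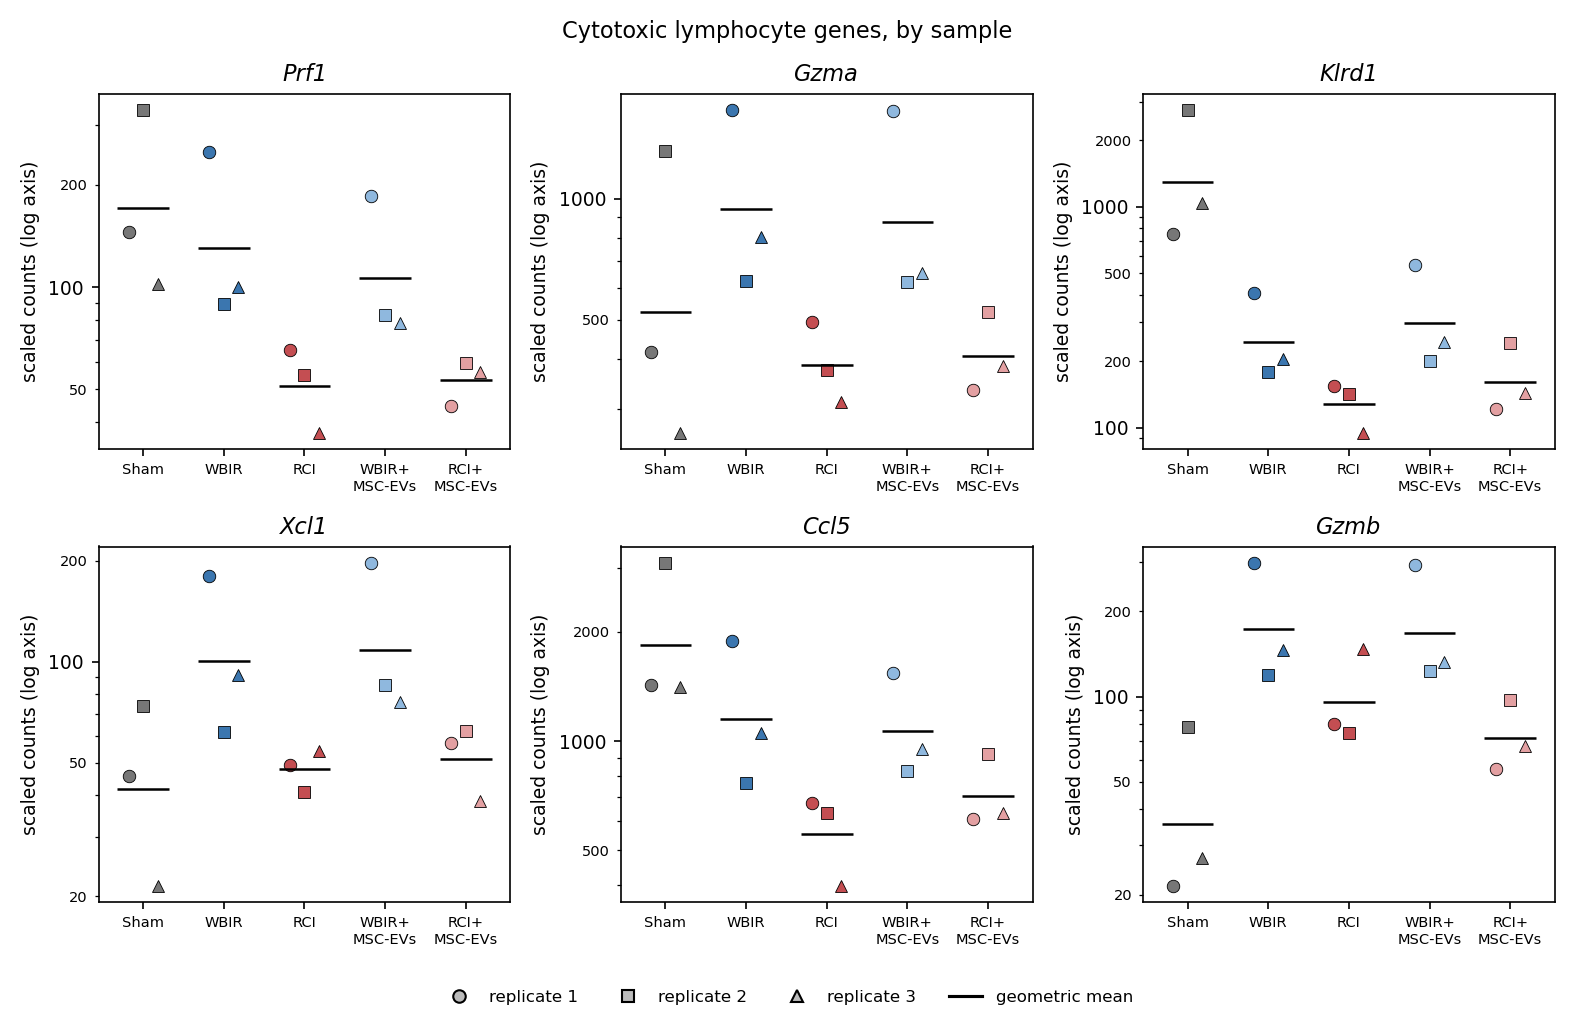
Counts scaled to the reference genes (log axis) of 6 cytotoxic lymphocyte genes in each of the 15 samples, with a line at the geometric mean of each group. RCI samples were below WBIR samples in *Prf1*, *Gzma*, *Klrd1*, *Xcl1* and *Ccl5*, *Gzmb* overlapped, and replicate 1 was the highest of its group in both WBIR and WBIR+MSC-EVs.

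Lymphocyte and antigen presentation genes gave no calls. Of the B cell list 1 of 19 was higher at an unadjusted p (*Cd24a*) and 0 lower, and the median of 0.03 was -0.12 with TMM scaling. Without RCI 3 it was 1 gene as well (*Cd79a*). Of the T cell list 1 of 25 was higher, *Foxp3* of regulatory T cells, with 34.5 to 46.3 scaled counts in WBIR and 64.1 to 91.5 in RCI (log2FC 0.98, edgeR adjusted p = 0.213), and without RCI 3 it was 3, *Foxp3* (log2FC 1.13), *Cd3d* and *Cd5*. Of the MHC class II list 0 of 12 passed an unadjusted p with RCI 3 and 5 were higher without it (*H2-Ab1*, *H2-Eb1*, *H2-Ob*, *Cd1d1* and *Cd80*). Of all tested genes 15% were higher and 1.64% lower with RCI 3, and 14.1% and 1.17% without it. The list's median went from 0.23 to 0.56, and that of all tested genes from 0.20 to 0.31. *H2-Eb1* had 461 to 640 in WBIR and 1445, 711 and 395 in RCI. Of the interferon-inducible list 2 of 22 were higher and 1 lower, *Ifitm1* (450, 111 and 332 in WBIR, 80.7, 91.1 and 126 in RCI), and these counts were 2 and 1 without RCI 3. Of the type 2 cytokine list 0 of 9 and of the p53 and apoptosis list 1 of 11 (*Fas*) reached an unadjusted p under 0.05, with and without RCI 3.

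RCI 3 differed over 2-fold from the mean of RCI 1 and 2 in 118 tested genes, 34 higher and 84 lower, against 41 and 37 genes for RCI 1 and RCI 2 and 8 to 45 for the WBIR samples. The highest were *Il1b* (log2 difference 3.60), *Il1rn* (3.34), *Ccl2* (3.18), *Il1a* (3.15) and *Irak3* (2.94), the cytokines and feedback genes of the lists above. The lowest were *Ccl24* (-4.54), *Vcam1* (-3.38), *Ccr3* (-3.36) and *Cd163* (-3.20). Genes of macrophages went both ways, since *Marco* (2.84) and *Itgam* (2.71) were among the highest. *Cd163* had 737, 998 and 93.2 scaled counts in RCI and 748 to 1517 in WBIR. *Vcam1* had 4171, 4166 and 400 in RCI and 1898 to 3589 in WBIR. In the MHC class II list 7 of 12 members were over 2-fold lower in RCI 3.

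RCI+MSC-EVs replicate 3, another sample, departed from its own group in the same genes to a smaller degree. Of the 34 genes high in RCI 3 it was above the mean of its group in 26, and of the 84 low genes below it in 67, whereas it was above its group in 147 of all 426. *Marco* had 3659, 4218 and 8513 scaled counts in RCI+MSC-EVs 1 to 3, *Il1a* 148, 160 and 435, and *Vcam1* 4712, 4209 and 2605. Over the tested genes, which are not independent, the departures of these 2 samples correlated at r = 0.514. All 6 same-numbered pairs of an untreated and a vesicle-treated sample of one injury correlated above 0, from 0.216 to 0.670 (WBIR 1 and WBIR+MSC-EVs 1), and some pairs with different numbers did too, up to 0.508 (WBIR 2 and WBIR+MSC-EVs 3). The departures of the samples of a group depend on each other, so these values cannot show if the numbers pair samples. No cartridge or date was used here that would tell what samples with the same number shared.

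**Figure D5:**
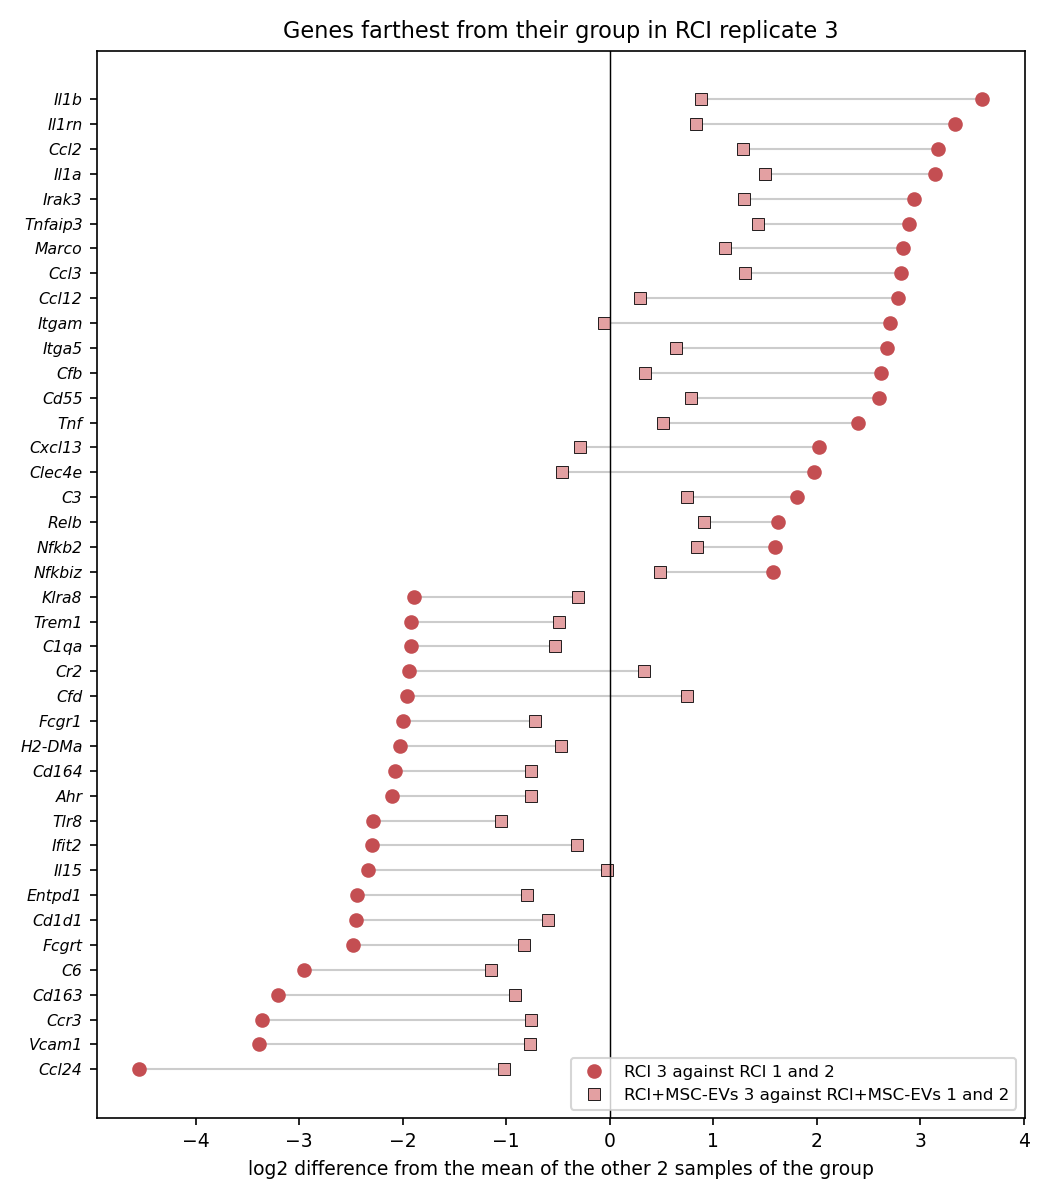
Log2 difference of replicate 3 from the mean of replicates 1 and 2 for the 20 genes highest and the 20 lowest in RCI 3, in RCI (circles) and in RCI+MSC-EVs (squares). Squares lay on the same side of 0 as circles for most genes, nearer to 0, and *Itgam*, *Cxcl13*, *Clec4e*, *Cr2* and *Cfd* were exceptions.

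The same burn contrast in vesicle-treated mice, RCI+MSC-EVs against WBIR+MSC-EVs, shared no samples with the first. Departures of same-numbered samples from their groups correlated above 0, as did some with different numbers, as given above. In edgeR 0 of 426 genes (0%) passed (lowest adjusted p 0.226) and 43 had an unadjusted p under 0.05 (10.1%), 35 higher (8.22%) and 8 lower (1.88%), while DESeq2 called 2, *Ccl9* and *Prkcd*. *Ccl9* had 50.04 to 61.8 scaled counts in WBIR+MSC-EVs and 195 to 470 in RCI+MSC-EVs, again without overlap, a log2FC of 2.33 ± 0.52 (edgeR adjusted p = 0.226). *Ccl6* had 156 to 205 and 308 to 637 (log2FC 1.43 ± 0.42, edgeR adjusted p = 0.274). *Il1r1* had 18.5 to 23.5 and 38.3 to 44.5, with a log2FC of 0.99 ± 0.34 (edgeR adjusted p = 0.382). *C4a* had 183 to 379 and 313 to 340 and overlapped (log2FC 0.31 ± 0.29, edgeR adjusted p = 0.704). Thus these chemokines and the IL-1 receptor had the same order in both pairs of groups, and *C4a* overlapped with vesicles.

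Of the 71 genes at an unadjusted p in untreated spleens, 67 had the same sign with vesicles, against 334 of all 426 (78.4%). The burn effects of all tested genes correlated at r = 0.673, and at 0.792 without RCI 3, as a description across genes that share libraries and scaling. *Prf1* and *Gzma* had log2FC of -1.07 and -1.23 with vesicles, and *Il1b* and *Ccl3*, which were high in RCI 3, -0.24 and -0.33. For *Prf1* and *Gzma* replicate 1 was the highest of its group in both WBIR and WBIR+MSC-EVs. NK cell markers summed to 683, 237 and 292 in WBIR+MSC-EVs 1 to 3. A high replicate 1 thus entered both contrasts, which may not be independent for these genes. The test of the difference between the 2 burn effects called 0 genes in edgeR and in DESeq2 (smallest edgeR adjusted p = 0.998), and 11 had an unadjusted p under 0.05 (2.58%), 10 of them with a larger value in untreated spleens (2.35%). These included *C4a* (difference 1.25 ± 0.42), *Ccl9* (1.71 ± 0.72), *Il1r1* (1.12 ± 0.48), *C3* (1.55 ± 0.68) and *Cfb* (1.73 ± 0.80). All of them had been named for their values in untreated spleens, and the differences include RCI 3. Leaving it out, their untreated log2FC were in this order 1.48, 3.35, 1.68, 1.11 and 1.02. With vesicles they were 0.31, 2.33, 0.99, 0.43 and 0.73. No difference between the burn effects therefore passed the adjustment.

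Of the 121 endogenous genes not tested, 94 had under 20 raw counts in all 6 samples, and 8 had a mean of at least 20 scaled counts in RCI. With no filter 1 of them was called, *Ccl7*, a chemokine of monocytes. It had 2.57, 6.07 and 5.05 scaled counts in WBIR and 17.0, 19.2 and 81.5 in RCI (log2FC 3.07 ± 0.62, edgeR adjusted p = 0.0260), with 4 of 547 genes called (0.731%). *Il6* had 7.58 to 9.11 in WBIR and 15.2, 17.98 and 29.7 in RCI, and *Cxcl1*, a neutrophil attractant, 1.29 to 5.90 and 8.07, 10.8 and 43.1. For both, the RCI samples were above the WBIR samples at counts near the low end of the assay. *Il10*, an anti-inflammatory cytokine, had 3.37 to 9.01 and 9.87, 21.6 and 41.3.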

How the data were processed

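Spleen RNA of 15 samples in 5 groups was assayed on the nCounter panel. The authors lysed red blood cells, isolated RNA, hybridized 100 ng, counted barcodes and normalized the values in nSolver. The deposited values are raw counts per gene before normalization (whole numbers, total per sample 90127 to 598872); counts near the low end carry more counting error. No background was subtracted. The deposited table gives symbols only, of which 545 were current in RefSeq GRCm38.p6, 14 older and 2 unmatched. Groups and replicate numbers came from the sample titles. Counts were scaled to the geometric mean of the 14 reference genes. The 426 of 547 endogenous genes whose mean over all samples reached 20 counts were tested two-sided with edgeR 4.0.16 (R 4.3.3, glmQLFit with robust estimation, glmQLFTest), with 1 coefficient per group, all 15 samples and Benjamini-Hochberg adjustment, and called at an adjusted p under 0.05. A log2FC is log2 of RCI over WBIR. The SE is the log2FC over the root of F. The fit was tested on simulated data.

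The comparison, the genes and the gene lists were chosen with earlier results of these data known. Named genes were those called with or without RCI 3, the 10 highest and 10 lowest log2FC among genes without overlap, and the 2 smallest p in each list, and not all are printed. Other genes, among them those low or high in RCI 3, those not tested and those described by their role in a list, were chosen after their values were seen. Alternatives were TMM and median-of-ratios scaling, the 7 least variable reference genes, no filter, a mean of at least 50 counts, the 2 groups alone, DESeq2 1.42.0, limma 3.58.1 with a pseudocount of 1 or 10, the replicate number as a block and leaving out each library. Chosen after seeing the data were reference genes without *Tubb5*, and TMM scaling or DESeq2 without RCI 3. Values of 1 tested gene are not reported here, in the text or the plots.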

Additional observations from a re-analysis of the deposited data

How the results depend on the processing

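The count of 3 genes called between RCI and WBIR became 1 with TMM scaling, 1 with median-of-ratios scaling, 0 with the 2 groups alone, 28 with DESeq2 and 6 with DESeq2 without RCI 3, and leaving out single libraries gave 1 to 15. It was 1 without WBIR 3, 8 without WBIR 1, 15 without RCI 1 and, through the shared spread, 7 without Sham 2. The replicate number as a block called 2 genes, *Ccl9* and *Il1r1*. Same-numbered deviations of RCI and WBIR samples from their group means correlated at -0.22, 0.24 and -0.06. The deviations of 3 samples from their mean depend on each other, so these values cannot show if the numbers pair samples. With vesicles DESeq2 called 2 genes. The difference of the burn effects gave 0 calls in each of its alternatives. The median log2FC of 0.20 became 0.021 with TMM scaling, 0.029 with median of ratios, -0.10 with the 7 least variable reference genes, 0.044 without *Tubb5* and 0.0055 with TMM scaling without RCI 3. Leaving out RCI 3 alone gave a median of 0.31. *Ccl9* was called in 27 of 28 settings, *Il1r1* in 22 of 27, *C4a* in 20 of 28 and *Ccl6* in 4 of 28, each higher in RCI in all of them. Signs turned in 4 genes that were never called: *Crlf2* (-0.033, 7 reference genes), *H2-Eb1* (-0.027 without RCI 1 to 0.94 without RCI 3), *Psmb5* (-0.013, TMM without RCI 3) and *Ppbp* (-0.10 with TMM, -0.075 with median of ratios, -0.18 with 7 reference genes, -0.054 without *Tubb5*, -0.16 without WBIR 2, -0.14 without RCI 2, 0.53 without WBIR 1). The cause was not tested. Genes under 20 counts are limited by counting error.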
